A study of Sus scrofa with 6 samples.

Results

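Mitochondrial fusion, fission and mitophagy genes were examined in the ventricular myocardium of Tibetan minipigs with pressure overload. The set was chosen by name and held 10 genes: MFN1, MFN2 and OPA1 for fusion, DNM1L, FIS1 and MFF for fission, and PINK1, BNIP3, BNIP3L and FUNDC1 for mitophagy. Of these, 9 were measured among the 13288 genes of the expression table and all 9 passed the filter for testing, which kept 11029 genes. In this set, 8 genes carried their own name in the table. FIS1 was found through its Ensembl identifier, which stood in a row without a name. No row carried the name DNM1L, and the gene was not analysed here.

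RNA was taken from the ventricles of 3 sham and 3 DAC minipigs, all males with no genetic modification stated. DAC is descending aortic constriction, in which a narrowed aorta makes the left ventricle pump against a higher pressure, and the sham animals had the chest opened without constriction. Tissue was collected 12 weeks after surgery, and the ages of the animals were not given in the sources used here. Each sample was an independent bulk sample of ventricular tissue sequenced as 1 library, so that fewer cells of a type and less RNA per cell cannot be told apart. The samples are named sham 1 to 3 and DAC 4 to 6.

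Mitochondria in heart muscle are remodelled by fusion and fission and cleared by mitophagy, the autophagic removal of whole mitochondria. MFN1 and MFN2 join outer membranes and OPA1 joins inner membranes, whereas the GTPase DRP1, encoded by DNM1L, constricts the organelle after docking on outer membrane adaptors such as MFF and FIS1. PINK1 is a kinase that accumulates on damaged mitochondria and marks them for removal through ubiquitin, while BNIP3, BNIP3L and FUNDC1 sit in the outer membrane and bind LC3 family proteins of the forming autophagosome directly.

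Values are FPKM, fragment counts scaled for transcript length and for the size of the library, which allow genes to be compared per length. Sequencing depth is not known from FPKM. Differences are log2 fold changes (log2FC) of DAC over sham on the log2(FPKM + 1) scale with a standard error (SE) from limma. The study chose genes by P without adjustment. Here a gene was called a differentially expressed gene (DEG) at an unadjusted P under 0.05. Under this rule 358 genes (3.25% of those tested) were higher and 581 genes (5.27%) were lower in DAC. No gene had a Benjamini-Hochberg adjusted P under 0.05 in limma, the smallest being 0.106, against 939 genes at an unadjusted P under 0.05. The FPKM summed to between 281377 and 308771 per sample. The share of the sum from the 13 mitochondrially encoded genes was 24.0% to 25.3% in sham and 27.1% to 32.8% in DAC. Cardiomyocyte markers were abundant in every sample, with a summed level of 7 genes of 12427 to 13702 FPKM in sham and 11989 to 15118 FPKM in DAC.

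PINK1 was the 1 gene of the set called a DEG, and its transcript was lower in DAC, a call that was lost without sham 1 and had an adjusted P of 0.522 in limma. In contrast, MFN1, OPA1, MFF, FIS1 and FUNDC1 each differed by less than 0.10 on the log2 scale with intervals that included 0. MFN2 and BNIP3 had lower means and BNIP3L a higher mean in DAC without passing the test. Thus 1 of the 9 genes was a DEG, a share near the 8.51% of all genes called in either direction, of which 5.27% were called lower. The 9 genes had a median log2FC of 0.022, with 3 lower and 6 higher means, and the median over all genes tested was −0.016. These directions rested on single libraries. Without sham 1 the median was −0.043 with 7 lower means, and without DAC 6 it was −0.0082 with 5 lower means.

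**Figure D1:**
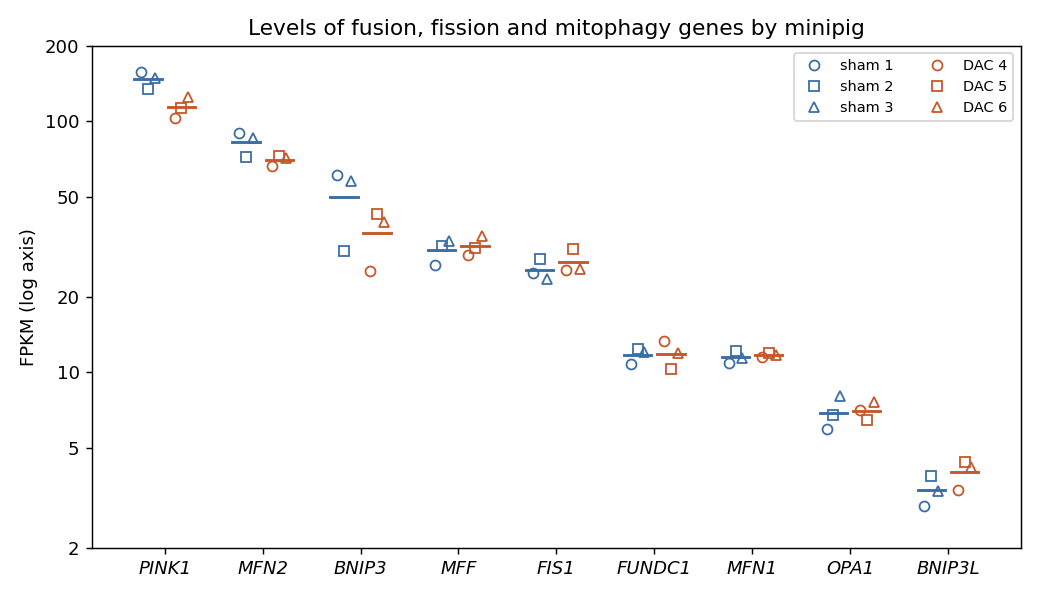
FPKM of the 9 measured genes in each of the 3 sham (blue) and 3 DAC (orange) samples on a log axis, with horizontal lines at the group means. PINK1 was the most abundant gene and all 3 of its DAC values lay below its sham values, whereas the groups overlapped for the other 8 genes.

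Among the fusion genes, MFN2 was by far the most abundant. MFN2, a mitofusin that also tethers mitochondria to the endoplasmic reticulum, lies on chromosome 6 from 72026722 to 72056439 on the plus strand (ENSSSCG00000003434, build susScr11). It measured 90.2, 72.0 and 86.1 FPKM in sham 1 to 3 and 66.7, 72.7 and 71.5 FPKM in DAC 4 to 6. The groups overlapped because sham 2 lay among the DAC samples, while sham 1 and sham 3 were above all of them. The mean was 82.8 ± 9.55 FPKM in sham and 70.3 ± 3.19 FPKM in DAC (SD, n = 3 each). The log2FC of MFN2 was −0.23 (SE 0.12, 95% confidence interval −0.50 to 0.050), with a limma P of 0.0945 and an adjusted P of 0.629. Without sham 2, MFN2 had a log2FC of −0.32 and a limma P of 0.0305. This was the 1 setting of 14 alternatives in which its P was under 0.05. The log2FC was −0.16 without sham 1 (limma P of 0.274).

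MFN1, the paralog of MFN2 with the stronger tethering activity, was the steadiest gene of the set. It lies on chromosome 13 from 117404699 to 117442481 on the plus strand (ENSSSCG00000039285). MFN1 was at 10.9, 12.2 and 11.4 FPKM in the sham samples and at 11.5, 11.9 and 11.7 FPKM in the DAC samples. All 3 DAC values lay inside the sham range. The coefficient of variation was 5.67% in sham and 1.65% in DAC, where the median over all genes tested was 12.2% and 14.7%. The log2FC of MFN1 was 0.022 (SE 0.096, 95% confidence interval −0.20 to 0.25, limma P of 0.826).

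OPA1 drives inner membrane fusion and holds cristae junctions closed. Its gene lies on chromosome 13 from 130624823 to 130719083 on the plus strand (ENSSSCG00000011822). OPA1 measured 5.94, 6.74 and 8.02 FPKM in sham and 7.05, 6.45 and 7.59 FPKM in DAC, so the DAC values again fell within the sham range. The log2FC of OPA1 was 0.029 (SE 0.13, 95% confidence interval −0.28 to 0.34, limma P of 0.827). The 3 sham values of OPA1 spread more widely than the 3 DAC values, at 6.90 ± 1.05 FPKM and 7.03 ± 0.573 FPKM (SD).

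The ratio of the mitofusins within each sample was also compared, because scaling of a sample cannot change it. The MFN2 to MFN1 ratio was 8.27, 5.90 and 7.52 in sham and 5.79, 6.11 and 6.13 in DAC. Sham 2 again fell within the DAC values. The ratio averaged 7.23 ± 1.21 in sham and 6.01 ± 0.191 in DAC (SD, n = 3 each), a log2 difference of −0.25 that did not pass an exact permutation test (two-sided P = 0.3). With 3 samples against 3 the smallest P this test allows is 0.1. The log2 difference was −0.39 without sham 2 and −0.15 without sham 1.

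Of the fission genes, both measured adaptors were present at similar levels in the groups. MFF, the main outer membrane adaptor for DRP1, lies on chromosome 15 from 128768348 to 128799345 on the plus strand (ENSSSCG00000031572). MFF measured 26.8, 31.8 and 33.3 FPKM in sham and 29.3, 31.4 and 34.8 FPKM in DAC. Its lowest value was in sham 1 and its highest in DAC 6, and the groups overlapped. The log2FC of MFF was 0.056 (SE 0.12, 95% confidence interval −0.23 to 0.35, limma P of 0.662).

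FIS1, a tail-anchored outer membrane protein that binds fission factors, lies on chromosome 3 from 8931104 to 8941865 on the minus strand (ENSSSCG00000038938). Its row overlaps that of CLDN15 on the same strand, which had a mean of 1.39 FPKM. FIS1 measured 24.9, 28.3 and 23.6 FPKM in sham and 25.6, 31.1 and 25.8 FPKM in DAC. DAC 5 was the highest sample and the other DAC values lay within the sham range. The log2FC of FIS1 was 0.099 (SE 0.12, 95% confidence interval −0.19 to 0.39, limma P of 0.452).

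The position of DNM1L in the RefSeq annotation (Sscrofa11.1, chromosome 5 from 41571054 to 41636058) was covered by a longer row on chromosome 5 from 41570282 to 41879062. The identifier of that row (ENSSSCG00000000530) is paired with FGD4, and its span of 308781 bp is 4.75 times that of DNM1L and overlaps 3 RefSeq protein-coding genes, YARS2, DNM1L and FGD4. The row measured 6.80 ± 1.18 FPKM in sham and 7.63 ± 0.650 FPKM in DAC (SD, n = 3 each), with a log2FC of 0.15 and a limma P of 0.299 for FGD4. These values cannot be assigned to DNM1L.

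PINK1 lies on chromosome 6 from 78863190 to 78884644 on the plus strand (ENSSSCG00000003506). PINK1 measured 158, 135 and 149 FPKM in sham 1 to 3 and 103, 113 and 125 FPKM in DAC 4 to 6. The groups did not overlap, with the lowest sham value, in sham 2, above the highest DAC value, in DAC 6. In all, 8.91% of the genes tested had all 3 DAC values below the sham values and 6.01% had all 3 above. The mean of PINK1 was 147 ± 11.4 FPKM in sham and 114 ± 11.2 FPKM in DAC (SD, n = 3 each), which is 22.8% lower. The log2FC of PINK1 was −0.37 (SE 0.12, 95% confidence interval −0.65 to −0.096), with a limma P of 0.0152 and an adjusted P of 0.522. PINK1 ranked 318 among the genes tested by P, and its difference does not survive correction over all genes. An exact permutation test of the means gave the smallest P this design allows (two-sided P = 0.1). It gives this P for any gene whose groups do not overlap, so it adds nothing to the lack of overlap. Without sham 1, PINK1 had a log2FC of −0.32 and a limma P of 0.0595, so that the call as a DEG needed this library. The row of PINK1 overlaps that of CDA on the same strand, which had a mean of 0.44 FPKM.

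Some other features of the samples also differed between the groups. Counts of DEGs in this paragraph are read beside the shares of all genes called, 3.25% higher and 5.27% lower. The summed level of 8 fibroblast markers was 398 to 462 FPKM in sham and 542 to 623 FPKM in DAC, and 3 of the 8 (LUM, COL1A1 and COL1A2) were DEGs higher in DAC. The other 5 were not DEGs. DCN and TCF21 had log2FC of −0.012 and −0.022 and DPT of 0.080, whereas FBLN1 and PDGFRA were at 0.20 and 0.24. The sum therefore does not stand for every marker of the list. None of the 8 was at 0 in all samples. Summed markers of endothelial cells were at 144 to 199 FPKM in sham and 128 to 191 FPKM in DAC, those of smooth muscle and pericytes at 166 to 198 and 189 to 213, those of leukocytes at 47.8 to 52.6 and 38.8 to 52.7, and those of adipocytes at 4.73 to 12.7 and 10.1 to 20.7, with groups that overlapped in each. Single markers of these lists were also DEGs. Among endothelial markers VWF was lower, with all DAC samples below all sham samples, and KDR was higher. The macrophage marker CD163 was lower, again without overlap, the cardiomyocyte calcium release channel RYR2 was lower and the smooth muscle gene CNN1 was higher, the last pair with overlapping groups. No adipocyte or red blood cell marker was a DEG. The part of these markers in the PINK1 result was not tested. Among the 13 mitochondrially encoded genes, ATP6, ATP8 and ND4 were DEGs higher in DAC. With the mitochondrially encoded genes left out and the rest rescaled, PINK1 had a log2FC of −0.33 and a limma P of 0.0212. Nuclear genes that mark mitochondrial content, such as subunits of the respiratory chain, had 12 of 14 lower means in DAC with a median log2FC of −0.16. Over all genes tested, 53.4% had a lower mean and the median was −0.016. Of the 14 genes, ATP5F1A, UQCRC1 and SDHA were DEGs lower in DAC. Set against the median of these 14 genes in each sample, PINK1 was at 0.18, 0.00014 and 0.077 in sham and at −0.22, −0.20 and 0.025 in DAC (centred log2 difference). The groups overlapped on this scale, with DAC 6 above sham 2, and the means differed by −0.22. This difference had no test, and the part of mitochondrial content in the PINK1 result was not tested.

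**Figure D2:**
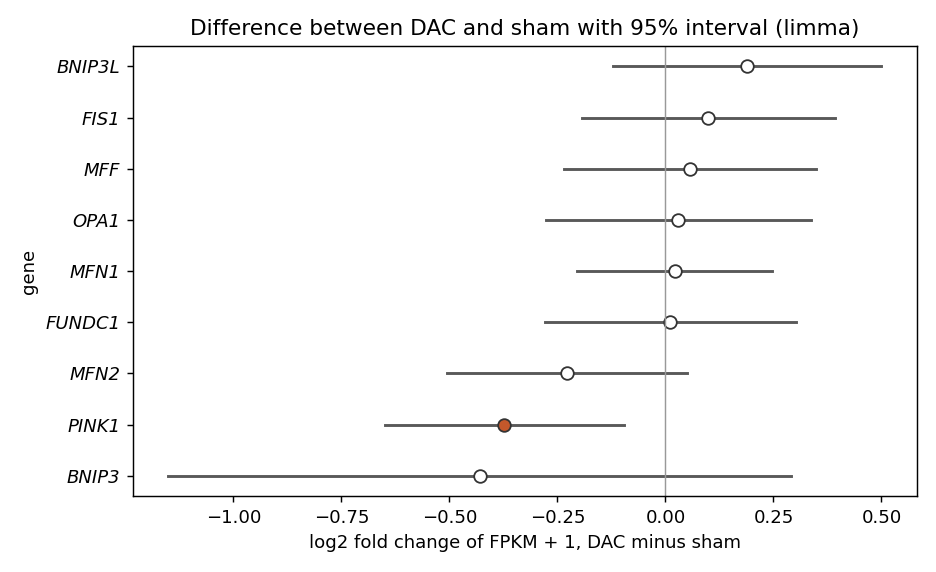
Log2 fold change (DAC over sham) of the 9 measured genes with 95% confidence intervals from limma, filled where the unadjusted P was under 0.05. The interval of PINK1 (−0.65 to −0.096) lay below 0 and the intervals of the other 8 genes included 0, that of BNIP3 being the widest (−1.15 to 0.29).

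The mitophagy receptors had means that differed in opposite directions for the paralogs BNIP3 and BNIP3L, neither past the test. BNIP3, an outer membrane receptor whose gene is a known target of the hypoxia-inducible factors, lies on chromosome 14 from 140362127 to 140371881 on the minus strand (ENSSSCG00000024388). BNIP3 measured 61.4, 30.5 and 57.9 FPKM in sham and 25.4, 42.9 and 39.9 FPKM in DAC. It was the most variable gene of the set, with sham 2 well below the other sham samples and below DAC 5 and DAC 6. The mean was 49.9 ± 16.9 FPKM in sham and 36.0 ± 9.37 FPKM in DAC (SD, n = 3 each). The log2FC of BNIP3 was −0.43 (SE 0.31, 95% confidence interval −1.15 to 0.29), with a limma P of 0.201 and an adjusted P of 0.709. Without sham 2, BNIP3 had a log2FC of −0.75 and a limma P of 0.0184. This was the 1 setting of 14 alternatives in which its P was under 0.05. The log2FC was −0.25 without sham 1 (limma P of 0.475) and −0.20 without DAC 4 (limma P of 0.537). The coefficient of variation of BNIP3 was 33.9% in sham and 26.0% in DAC.

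The list of other targets of the hypoxia-inducible factors had 20 genes tested, with 1 DEG higher and 1 lower in DAC. Over all genes the shares were 3.25% higher and 5.27% lower. HK2, a hexokinase, was higher with a limma P of 0.0469, and its groups overlapped (sham 2 at 4.11 FPKM, DAC 5 at 3.25 FPKM). DDIT4, a stress-induced inhibitor of mTORC1 signalling, was lower, with all DAC samples below all sham samples. The median log2FC of this list was −0.078, with 12 lower means.

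BNIP3L, also called NIX and known for the clearance of mitochondria from maturing red cells, was the least abundant gene of the set. It lies on chromosome 14 from 10318714 to 10345683 on the plus strand (ENSSSCG00000009658). BNIP3L measured 2.94, 3.86 and 3.35 FPKM in sham and 3.40, 4.37 and 4.20 FPKM in DAC. DAC 5 and DAC 6 were above all sham samples, and DAC 4 lay within the sham range. The log2FC of BNIP3L was 0.19 (SE 0.13, 95% confidence interval −0.12 to 0.50), with a limma P of 0.196. Red blood cell markers, of which 3 had a row, summed to 11.4 to 39.3 FPKM in sham and 5.96 to 38.5 FPKM in DAC.

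FUNDC1, a receptor that responds to low oxygen, lies on chromosome X from 39724995 to 39737532 on the minus strand (ENSSSCG00000012258). FUNDC1 measured 10.78, 12.36 and 12.02 FPKM in sham and 13.29, 10.30 and 11.98 FPKM in DAC. Both the highest and the lowest value were in DAC samples. The log2FC of FUNDC1 was 0.011 (SE 0.12, 95% confidence interval −0.28 to 0.30, limma P of 0.930).

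The BNIP3 to BNIP3L ratio within a sample was 20.9, 7.90 and 17.3 in sham and 7.45, 9.81 and 9.49 in DAC. Sham 1 and sham 3 were above the rest, and sham 2 lay among the DAC samples. The ratio averaged 15.4 ± 6.71 in sham and 8.92 ± 1.28 in DAC (SD, n = 3 each). The log2 difference of −0.68 did not pass the exact permutation test (two-sided P = 0.3). Taken as BNIP3L to BNIP3, the log2 difference was 0.68, and it was 1.10 without sham 2 and 0.40 without sham 1.

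**Figure D3:**
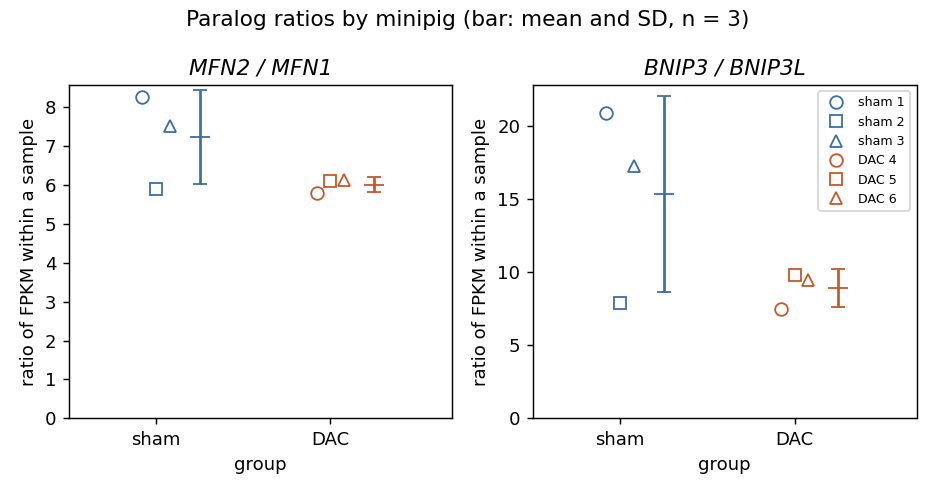
Ratio of FPKM of the mitofusins (MFN2 to MFN1) and of the paralogous receptors (BNIP3 to BNIP3L) in each sham and DAC sample, with bars for the mean and SD of 3 samples. For both ratios sham 2 lay among the DAC samples, and sham 1 and sham 3 were above them.

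Ordered by mean FPKM, the genes stood in the same order in both groups: PINK1, MFN2, BNIP3, MFF, FIS1, FUNDC1, MFN1, OPA1 and BNIP3L. Neighbours whose values overlapped within a group were BNIP3 and MFF, MFF and FIS1, and FUNDC1 and MFN1. The other neighbours were separated in both groups. By mean level, PINK1 ranked 229 and MFN2 ranked 425 of the 11029 genes tested, whereas OPA1 was at the percentile 55.0 and BNIP3L at 34.1. The median level of all genes tested was 5.96 FPKM.

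The genes also differed in how the samples ordered them. BNIP3, PINK1 and MFN2 were each highest in sham 1, next highest in sham 3 and lowest in DAC 4. Centred on their mean log2 level, these genes in sham 1 were at 0.57, 0.29 and 0.24, and in DAC 4 at −0.67, −0.33 and −0.19, respectively. In sham 2 they were at −0.42, 0.07 and −0.08, closer to the DAC samples than sham 1 and sham 3 were. MFN1, OPA1, MFF and BNIP3L were lowest in sham 1. MFN1 spread least, with a root mean square of 0.046 on this scale, and BNIP3 most, with 0.446.

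**Figure D4:**
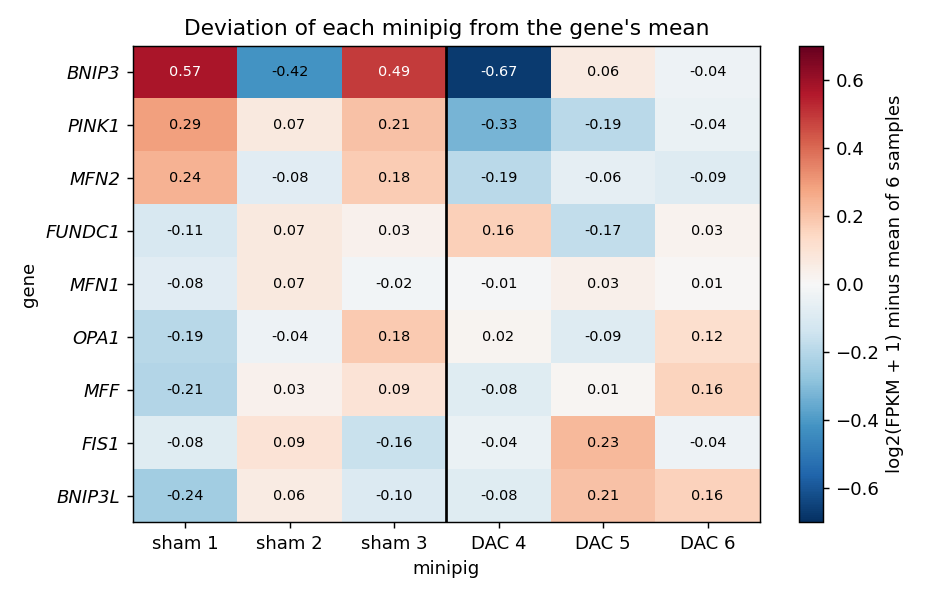
Heat map of the log2(FPKM + 1) of each gene (rows) in each sample (columns), centred on the mean of the gene over the 6 samples. BNIP3, PINK1 and MFN2 were highest in sham 1 and lowest in DAC 4, and MFN1 stayed nearest to 0.

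The genes whose profile over the 6 samples lay nearest to that of PINK1, by root mean square difference of centred log2 levels, were HADH (0.029), XK (0.034) and NDST1 (0.045), beside a spread of 0.213 for PINK1 itself. HADH encodes a dehydrogenase of mitochondrial fatty acid oxidation, XK a membrane protein and NDST1 an enzyme of heparan sulfate synthesis. For MFN2, with a spread of 0.155, the nearest were VPS51 (0.023), DBNDD2 (0.029) and ALOX5 (0.032). VPS51 belongs to a complex that tethers vesicles at the Golgi, and ALOX5 is the lipoxygenase that starts leukotriene synthesis. These genes were picked as the nearest in a search of all named genes tested, over only 6 samples. Shared regulation was not tested.

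Other genes of the same pathways were described through 6 lists with 89 genes tested. Of these, 7 (7.87%) were DEGs lower in DAC, beside 5.27% of all genes, and 0 were DEGs higher in DAC, beside 3.25%. Lower means were found for 68 genes and higher means for 21, with a median log2FC of −0.079 against −0.016 over all genes, of which 53.4% had a lower mean. Without sham 1, 1 of the 89 genes was a DEG lower in DAC, and without sham 3 or without DAC 4 there were 4. Calls over all genes fell as well. The DEGs in either direction numbered 939 with all samples, 600 without sham 1, 631 without sham 3 and 829 without DAC 4. Of the 89 genes, 14 (15.7%) had all DAC values below the sham values and 5 (5.62%) had all above, beside 8.91% and 6.01% of all genes. None of the 7 had an adjusted P under 0.05. The counts by list that follow are read beside the same shares of all genes, 5.27% lower and 3.25% higher.

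Fusion partners and proteins that process OPA1 had 9 genes tested, of which 2 were lower and 0 higher. MIGA2, an outer membrane protein that promotes fusion, measured 81.9, 67.7 and 78.7 FPKM in sham and 60.9, 56.7 and 58.8 FPKM in DAC. All DAC samples were below all sham samples, and the log2FC of MIGA2 was −0.36 (limma P of 0.0128, adjusted P of 0.508). SLC25A46, a mitochondrial outer membrane protein of the carrier family, went from 14.8 ± 0.154 FPKM in sham to 12.6 ± 0.289 FPKM in DAC (SD, n = 3 each), with a log2FC of −0.22 and a limma P of 0.0472. The list had 8 lower means and a median log2FC of −0.16.

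Fission adaptors and regulators had 14 genes tested, with 1 lower and 0 higher. This was PGAM5, a mitochondrial phosphatase that acts on DRP1 and FUNDC1. PGAM5 measured 17.7, 17.1 and 17.4 FPKM in sham and 13.2, 15.5 and 14.5 FPKM in DAC, with a log2FC of −0.26 and a limma P of 0.0371. The median log2FC of the list was −0.14, with 10 lower means.

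The list for PINK1 and ubiquitin-dependent mitophagy, which also held deubiquitinases such as USP30 and USP15, had 20 genes tested. Of these, 1 was lower and 0 higher, beside 5.27% and 3.25% of all genes. DNAJA3, a mitochondrial co-chaperone, measured 45.7, 40.0 and 42.2 FPKM in sham and 33.7, 34.0 and 28.9 FPKM in DAC. The log2FC of DNAJA3 was −0.40 (limma P of 0.00906). The median log2FC of the list was −0.069, with 15 lower means.

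Cargo adaptors of autophagy and the LC3 family connect tagged mitochondria to the autophagosome. Their list also held genes that start or regulate autophagy, such as ULK1, BECN1 and TFEB. It had 19 genes tested, with 3 lower and 0 higher. SQSTM1, the cargo adaptor p62, measured 200, 183 and 178 FPKM in sham and 149, 153 and 154 FPKM in DAC. The log2FC of SQSTM1 was −0.29 (limma P of 0.0175). GABARAPL1, an LC3 family member, measured 129, 138 and 120 FPKM in sham and 111, 101 and 96.0 FPKM in DAC, with a log2FC of −0.33 and a limma P of 0.0189. ULK1, the kinase that starts autophagosome formation, measured 23.7, 19.9 and 25.1 FPKM in sham and 14.5, 18.5 and 18.8 FPKM in DAC, with a log2FC of −0.39 and a limma P of 0.0288. In each of these genes the DAC samples were all below the sham samples. The list had 15 lower means and a median log2FC of −0.053.

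No gene was a DEG in the remaining pathway lists. Mitophagy receptors and their regulators had 16 genes tested, 11 lower means and a median log2FC of −0.062. The list of genes for cristae and for the MICOS complex, which shapes them, also held genes outside that complex, such as SAMM50 and TMEM70. It had 11 genes tested, 9 lower means and a median log2FC of −0.093.

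**Figure D5:**
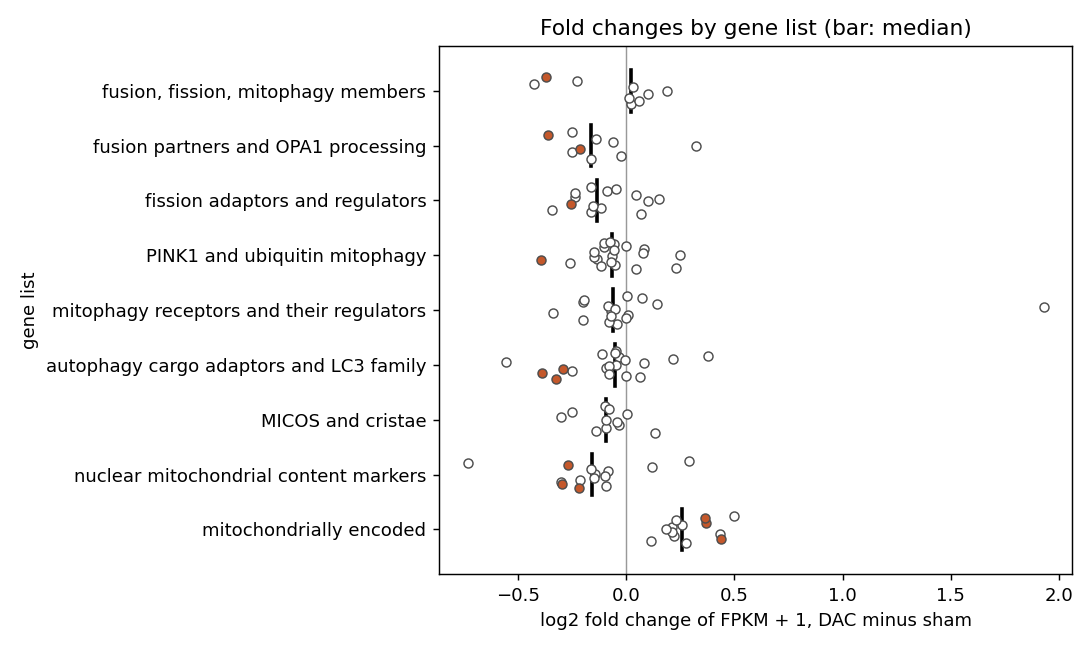
Log2 fold change (DAC over sham) of each gene tested, by list, for the 9 measured genes, the 6 pathway lists, the nuclear content markers and the 13 mitochondrially encoded genes, with black lines at the medians and filled points for DEGs. The medians of the 6 pathway lists lay between −0.16 and −0.053 and their 7 DEGs were all lower in DAC, whereas all 13 mitochondrially encoded genes had higher means.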

How the data were processed

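Per the labels and the study's methods, total RNA of ventricular tissue was made into NEBNext Ultra libraries and sequenced as paired ends. The submitters' processing notes name HISAT2 and the build susScr11; the program that gave the deposited FPKM is not given in the sources used here. The authors deposited FPKM per gene, and no gene of the table stayed below 0.5001 FPKM in its highest sample. FPKM are not counts, so no count model was used.

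Genes that reached 1 FPKM in 3 or more samples entered a limma fit, version 3.58.1 (R 4.3.3, trended empirical Bayes) on log2(FPKM + 1), with Benjamini-Hochberg adjustment over all genes tested. Ratios, and the levels of PINK1, were compared with exact permutation tests (scipy 1.17.1). The test of PINK1 levels was not among those planned. Of the rows without a name, 520 took a symbol from an identifier table. The limma fit was tested on simulated data in which some genes were given a log2 difference of 1, larger than that of any member. The power at the differences of the members was not tested. Samples were grouped by the labels, which call the samples independent.

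The members, gene lists and tests were chosen with earlier results of these data known. From each gene list, marker lists included, up to 5 genes with the smallest P under 0.05 are named, and the 3 nearest profiles for each of the 2 members with the smallest P. Alternatives changed the filter, pseudocount, scaling, variance model and samples. Counts over the pathway lists under these alternatives, the comparison of PINK1 with the median of the content markers, and the count of pathway genes without overlap were added after seeing the data. Values of 1 gene of the pathway lists are not reported here.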

Additional observations from a re-analysis of the deposited data

How the results depend on the processing

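The count of DEGs among the 9 genes was 1 under every change of filter, pseudocount, scaling and variance model. At a minimum of 5 FPKM only 8 of them were tested, without BNIP3L. The count ranged from 0 (without sham 1) to 3 (without sham 2, with MFN2, PINK1 and BNIP3) when a sample was left out. The number with a lower mean ranged from 3 to 7 when a sample was left out, and their median log2FC from −0.043 to 0.048. The sign of 4 genes near 0 changed when a sample was left out: log2FC ranged from −0.014 to 0.061 for MFN1, from −0.060 to 0.13 for OPA1, from −0.033 to 0.12 for MFF and from −0.068 to 0.10 for FUNDC1. PINK1 was lower in DAC under all 14 alternatives (log2FC −0.44 to −0.27, adjusted P of 0.464 to 0.896 in limma) and a DEG under 13. MFN2 ranged from −0.32 to −0.16, BNIP3 from −0.75 to −0.20 and, over 13 alternatives, BNIP3L from 0.11 to 0.28. The cause of these changes was not tested.

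Of the 89 other pathway genes, the DEGs lower in DAC numbered 7 in the report, 5 after median scaling, 3 after quantile normalization, 5 with the mitochondrially encoded genes left out, 8 with a variance of its own for each gene, 9 with sample weights, and 1 (without sham 1) to 8 (without DAC 5) when a sample was left out. The DEGs higher in DAC numbered 0 in the report and up to 2 under the alternatives. Over all genes the DEGs numbered 939, against 579 of the 6271 genes kept at a minimum of 5 FPKM and 600 without sham 1. The planned DNM1L to MFN2 ratio was not run because DNM1L had no value. Precision is limited by 3 samples per group, and the depth behind each FPKM is unknown.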

Other observations

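A few genes of the lists stood apart in single libraries and are named after their values were seen. MCL1, an anti-apoptotic protein that also binds LC3, was listed at 0 in sham 1, sham 2 and DAC 4 and at 3.20, 6.26 and 31.1 FPKM in sham 3, DAC 5 and DAC 6. COX4I1, a subunit of cytochrome c oxidase, was at 185 FPKM in DAC 4, the lowest of its 6 values.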
